A study of Mus musculus with 6 samples.

Results

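The ABC transporter family was followed in embryonic back skin, taking every gene of the deposited counts table whose symbol is Abc, a subfamily letter from a to g and a number, with or without a closing a or b. The pattern matched 50 symbols and 2 were left out by the rule, which leaves 48 of the 55401 gene identifiers in the table. The name pattern reads no count, but the family was proposed with results of the same comparison known. Its calls and fold changes are therefore a description, and nothing is read from how many members passed the test. The adjusted p-values given below are each gene's place in a fit over all 19227 genes tested.

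ABC proteins bind and hydrolyse ATP through a shared pair of nucleotide-binding domains, and most use it to move a substrate across a membrane. The A and G subfamilies mainly carry sterols and phospholipids, the B and C subfamilies hold the drug pumps, conjugate exporters, mitochondrial carriers and a channel regulator, and the D subfamily feeds the peroxisome. The E and F subfamilies have no membrane part and work on the ribosome. In skin, lipid-carrying ABC proteins are known for supplying the barrier lipids of the outer epidermis, and drug pumps for the vessel wall and for stem cells.

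The libraries were made from the back skin of E15.5 mouse embryos, 3 of them control and 3 Prmt5 cKO, with 1 embryo behind each library. Prmt5 encodes an arginine methyltransferase, and the series title places its loss in the epidermis. The sample labels name neither the Cre line nor the alleles of the controls, while the deposited table's own name joins Prmt5 to CRECT, also the name of a Cre driver of the surface ectoderm. The labels describe the cells as a mixture of epidermis and dermis. Counts summed to between 35667634 and 66122667 per library.

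Of 19227 genes tested over the whole table, 35.9% passed the quasi-likelihood test in edgeR (adjusted p under 0.05), with 16.3% higher in the cKO and 19.6% lower. Prmt5 itself fell from 59.2 ± 16.6 to 28.2 ± 2.17 CPM (CPM, counts scaled to library size with TMM factors; SD, n = 3 in each group; log2 fold change -1.07 ± 0.19 SE, adjusted p 0.00292). Epithelial markers were detected in every library but lower in the cKO. Of 15 pan-epithelial markers 13 fell and 1 rose, and their summed level was 8978 to 9870 CPM in controls and 3597 to 3986 CPM in cKO. All 10 suprabasal keratinocyte markers fell, from 16625 to 23050 CPM summed in controls to 414.8 to 534.0 CPM in cKO. All 10 dermal fibroblast markers rose, from 37419 to 47102 CPM to 57069 to 75932 CPM, as did all 10 skeletal muscle markers, from 2655 to 3733 CPM to 6284 to 6408 CPM. Among 10 endothelial markers 9 rose (656.7 to 750.8 against 839.5 to 911.3 CPM summed), and among 10 macrophage markers 6 (359.0 to 468.3 against 491.4 to 557.0 CPM). In a joint list of 10 pericyte and smooth muscle markers 7 rose and 1 fell (757.1 to 871.4 against 1065 to 1160.1 CPM). Its largest log2 rises were in Tagln (2.62), Cnn1 (2.05) and Des (1.01), and Rgs5 was the 1 that fell (-0.23). Of 10 Schwann and melanocyte markers 3 rose and 1 fell, and of 6 adipocyte markers tested 2 rose and 1 fell. Adipoq, counted among the risers, measured 0, 53.4 and 9.56 CPM in cKO and 0 to 0.285 CPM in controls, and lost its call without control 1, control 2, control 3 or cKO 2 (edgeR adjusted p 0.0542 to 0.0713), with a sex term (0.0839) and with limma-voom (0.555). The epithelial, suprabasal, fibroblast, skeletal muscle, endothelial, macrophage, and pericyte and smooth muscle markers all had counts in every library. Fewer cells of a type and less RNA per cell cannot be told apart in bulk skin. The part of these marker shifts in the ABC results below was not tested. Xist and Y-linked counts gave a female pattern in control 1, cKO 2 and cKO 3 and a male pattern in control 2, control 3 and cKO 1, so sex was mixed in both groups.

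Of the 48 genes, 39 passed the filter on low counts and were tested. Of these, 11 were higher and 12 lower in the cKO and 16 did not pass the threshold, so 59.0% were called, beside 35.9% of all genes tested. A gene can pass the filter through the group where it is high, and the family was proposed with results known, so nothing is read from that share. Among the 28 members at 5 CPM or more in a group, 9 were higher, 11 lower and 8 not called, beside 46.5% called (20.4% higher and 26.1% lower) of the 12789 genes at that level. Groups did not overlap in any library for 23 of 39 members, beside 49.9% of all genes tested, and these were the same 23 that were called. Changes of at least 2-fold were seen in 4 members, Abcb1b and Abcg5 upwards and Abcc8 and Abca7 downwards, beside 8.51% of all genes tested (2.88% higher and 5.63% lower). The median log2 fold change was 0.22 over the 39 members and -0.01 over all genes tested, and at 5 CPM or more it was 0.04 and -0.03.

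**Figure D1:**
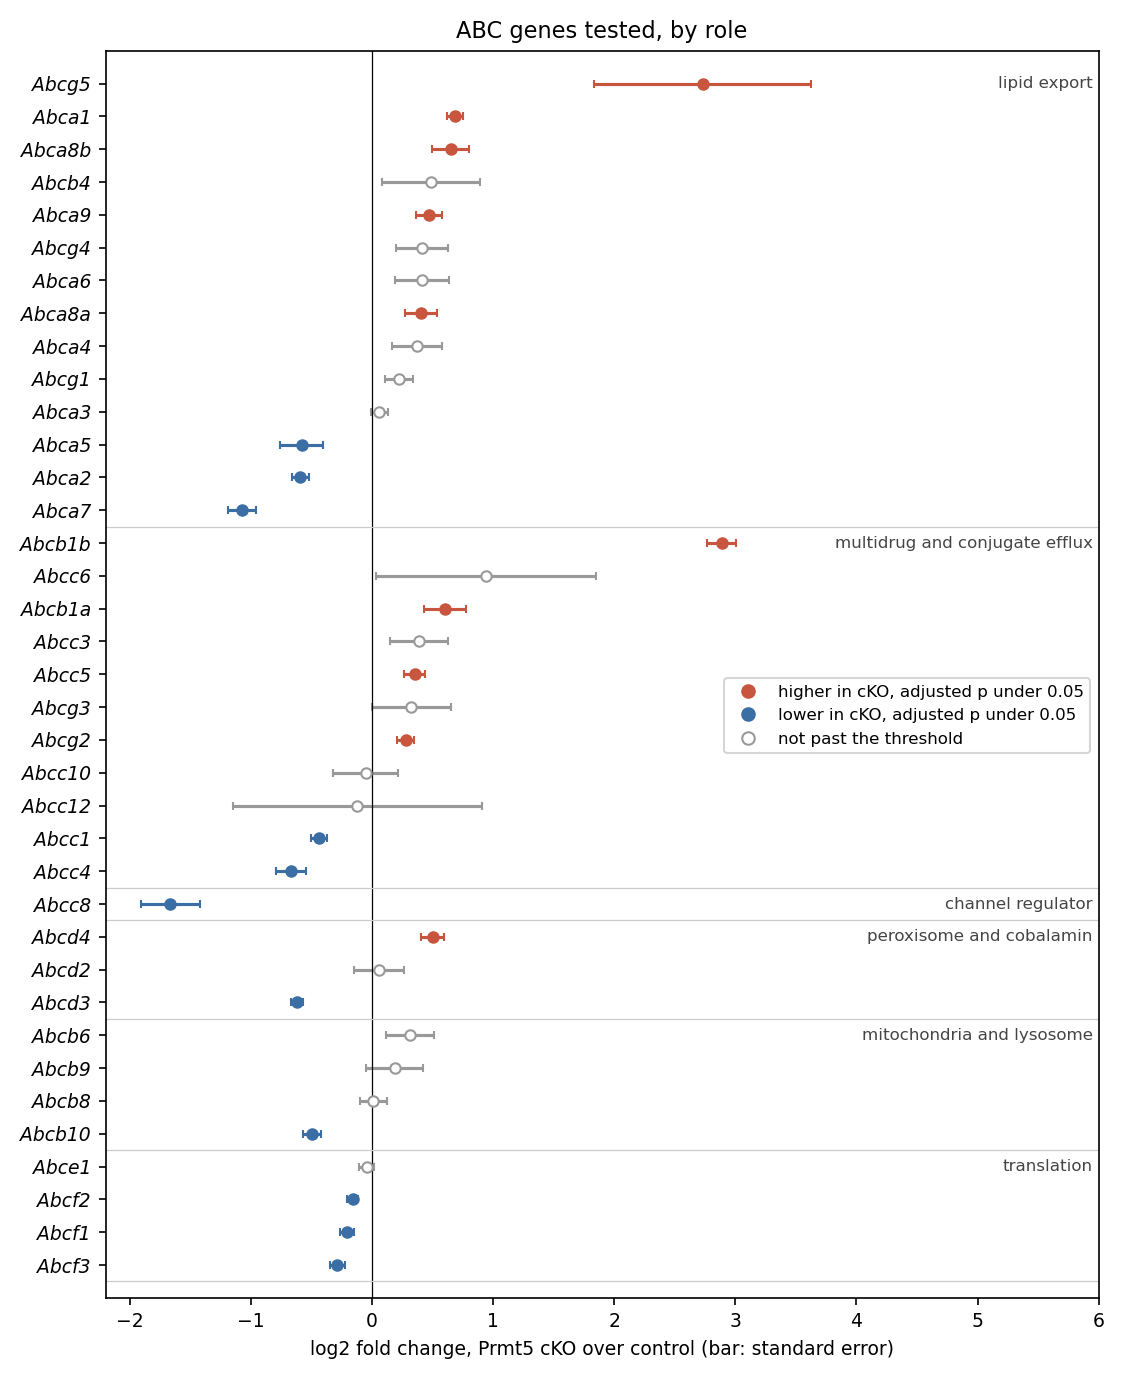
Log2 fold changes of 37 tested ABC genes, Prmt5 cKO over control, with the standard error as bars, grouped by role; filled points passed an adjusted p of 0.05 and open points did not. Abcb1b at 2.89 and Abcg5 at 2.73 lie far to the right, Abcg5 with a wide bar, and Abcc8 at -1.66 is farthest to the left.

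Promoter sequence is shown for the neighbours Abcb1a and Abcb1b, called higher, and Abcb4, not called, which form 1 gene cluster. It is also shown for the relatives Abca1 and Abca7, which moved in opposite directions. Each is the 250 bases before the RefSeq start on GRCm38.p6, printed 5′ to 3′ on the gene's strand, and capitals mark motif matches. The search covered both strands and 4 motifs. The first was CCAAT. The GC box was searched as GGGCGG. The other two were the TATA box with the letters TATAAA and the p53 consensus half-site. A window with no capitals holds no such match, which says nothing about a factor.
Abcb1a promoter, chr5:8566841-8567090, plus strand: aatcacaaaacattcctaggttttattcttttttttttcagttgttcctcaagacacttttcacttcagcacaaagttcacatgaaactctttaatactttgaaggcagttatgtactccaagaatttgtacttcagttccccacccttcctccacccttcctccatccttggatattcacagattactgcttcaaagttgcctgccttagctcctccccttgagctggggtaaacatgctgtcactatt
Abcb1b promoter, chr5:8797897-8798146, plus strand: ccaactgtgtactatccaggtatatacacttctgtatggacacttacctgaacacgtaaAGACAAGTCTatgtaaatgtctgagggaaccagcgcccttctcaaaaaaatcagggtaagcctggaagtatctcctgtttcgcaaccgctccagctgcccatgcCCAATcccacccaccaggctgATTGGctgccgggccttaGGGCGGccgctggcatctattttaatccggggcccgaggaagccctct
Abcb4 promoter, chr5:8893471-8893720, plus strand: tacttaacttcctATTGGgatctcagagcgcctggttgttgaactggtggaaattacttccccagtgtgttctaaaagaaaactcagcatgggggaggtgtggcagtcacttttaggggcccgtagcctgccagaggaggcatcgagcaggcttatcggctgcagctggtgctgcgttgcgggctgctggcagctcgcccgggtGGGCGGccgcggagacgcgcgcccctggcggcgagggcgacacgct
Abca1 promoter, chr4:53159896-53160145, minus strand: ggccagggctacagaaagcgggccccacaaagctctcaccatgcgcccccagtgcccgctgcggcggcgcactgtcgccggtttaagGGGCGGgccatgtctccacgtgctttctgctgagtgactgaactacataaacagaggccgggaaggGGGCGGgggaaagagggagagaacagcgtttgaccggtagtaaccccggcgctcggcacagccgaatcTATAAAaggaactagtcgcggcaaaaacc
Abca7 promoter, chr10:79996244-79996493, plus strand: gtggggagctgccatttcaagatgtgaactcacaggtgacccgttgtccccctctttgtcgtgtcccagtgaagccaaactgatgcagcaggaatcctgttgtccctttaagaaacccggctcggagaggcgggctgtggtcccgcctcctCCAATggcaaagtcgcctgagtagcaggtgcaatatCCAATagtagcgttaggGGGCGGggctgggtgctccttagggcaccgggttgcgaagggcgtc

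The Abcb1b window held a match to the p53 half-site (AGACAAGTCT, positions -191 to -182 from the start), CCAAT at -87 to -83, its reverse ATTGG at -66 to -62 and a GC box at -48 to -43. No match lay in the Abcb1a window, whose GC content was 40.4% against 52.8% for Abcb1b. The RefSeq start of Abcb1a is 92986 bases upstream of its start in GENCODE, so the window may not be the promoter used in skin. The Abcb4 window shared ATTGG (-237 to -233) and the GC box (-46 to -41). Abca1 held 2 GC boxes (-163 to -158 and -97 to -92) and a TATAAA box (-29 to -24), while Abca7 held 2 CCAAT boxes (-99 to -95 and -63 to -59) and a GC box (-46 to -41). These motifs are common: of 32851 RefSeq mouse promoters of that length, 33.8% held CCAAT, 32.7% the GC box, 12.4% TATAAA and 7.13% the p53 half-site. Promoters were found for 36 of the 48 members, 43 promoters in all. Of those 43, 13 held CCAAT, 19 the GC box, 5 TATAAA and 3 the p53 half-site (Abcb1b, Abca13 and Abcc2). In rat, the Mdr1b promoter is known for a response to p53, which was not measured here.

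Abcb1b, a drug pump, was higher in the cKO by a wide margin, and its neighbour Abcb1a by a small one. Abcb1a and Abcb1b encode P-glycoprotein, the efflux pump that humans make from the single gene ABCB1, and lie side by side with Abcb4 within 299.2 kb of chromosome 5. Abcb1b (ENSMUSG00000028970.9, chr5:8798147-8866315, plus strand, protein coding in the GENCODE M21 annotation of GRCm38) measured 2.93, 3.61 and 3.84 CPM in the controls and 24.1, 25.8 and 26.9 CPM in the cKO libraries. All 3 cKO libraries lay far above all 3 controls, with little spread in either group. The means were 3.46 ± 0.474 and 25.6 ± 1.42 CPM (SD, n = 3), a 7.40-fold difference, with a log2 fold change of 2.89 ± 0.12 (SE) and an adjusted p of 7.91e-07 by edgeR. The counts behind it were 130, 239 and 135 in controls and 1129, 1527 and 1261 in cKO.

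Abcb1a (ENSMUSG00000040584.8, chr5:8660077-8748575, plus strand) measured 3.63, 2.84 and 3.07 CPM in controls and 5.39, 4.07 and 5.01 CPM in cKO. The groups did not overlap, but the gap between cKO 2 and control 1 was small. Its log2 fold change was 0.60 ± 0.17 (adjusted p 0.0258 by edgeR), and the call was lost without control 2, control 3, cKO 1 or cKO 3 (edgeR adjusted p 0.0703 to 0.0829 without each) and with a sex term (0.0504). Abcb4, the third gene of the cluster and the phosphatidylcholine pump of bile canaliculi, held 15, 28 and 11 counts in controls and 26, 38 and 15 in cKO and was not called (0.49 ± 0.40, adjusted p 0.394 by edgeR). Merged exons sum to 7990 bases for Abcb1b and 5480 for Abcb1a. Per length on that measure, Abcb1b was the lower of the P-glycoprotein pair in every control and the higher in every cKO library. The longest protein-coding transcript is instead shorter for Abcb1b (4306 against 4997 bases), so the order in controls depends on the length used. The change of the ratio between the groups does not. The ratio of Abcb1b to Abcb1a in TPM (a level per length, computed from the counts with merged exon lengths) was 0.554, 0.872 and 0.857 in controls and 3.06, 4.35 and 3.68 in cKO. Its mean went from 0.761 ± 0.180 to 3.70 ± 0.643 (SD, n = 3).

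Of all 50-base stretches of the longest protein-coding Abcb1b transcript, 18.0% also occur in Abcb1a and 1.55% in Abcb4, so reads from the shared stretches may be split between the copies, and the small Abcb1a difference is uncertain for that reason. Abcb1b also overlaps the antisense gene Gm5106, and whether the counting used strand is not given in the sources used here. In the authors' deposited table from Sleuth, the Abcb1b coefficient was 1.82 on the natural log scale (q 2.77e-20), which is 2.63 as log2, while the Abcb1a q-value there was 0.219. P-glycoprotein is known for the vessel wall, and the 10 endothelial markers had a median log2 fold change of 0.32, beside 2.89 for Abcb1b. The summed epithelial and endothelial marker levels are those given above, and their part in the Abcb1b difference was not tested.

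**Figure D2:**
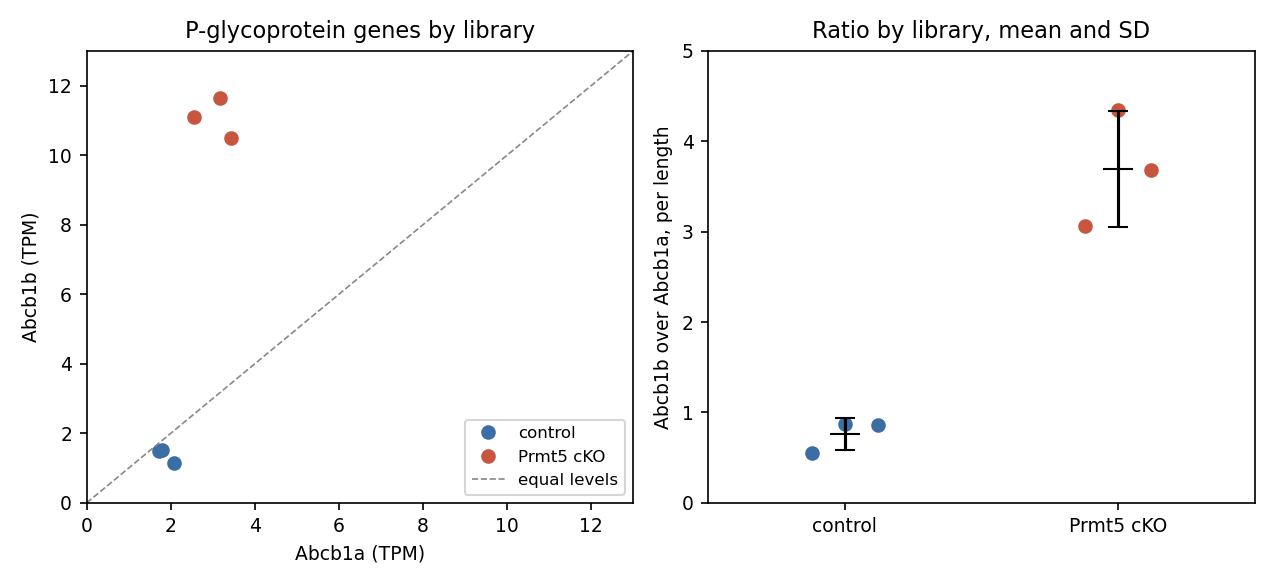
Left, TPM of Abcb1b against Abcb1a in each library, with a dashed line where both are equal; right, their ratio by library with the mean and SD of 3 libraries in black. With merged exon lengths, the control libraries lie below the line (ratios 0.554 to 0.872) and the cKO libraries above it (3.06 to 4.35).

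Of 13 pumps for drugs and conjugates, the P-glycoprotein pair included, 11 were tested, with 4 higher, 2 lower and 5 not called, and a median log2 fold change of 0.33. The share called was 54.5%, beside 35.9% of all genes tested, and nothing is read from it. Beside the pair, Abcg2 and Abcc5 were higher and Abcc1 and Abcc4 lower. Abcg2, a pump for drugs, urate and porphyrins, had the highest mean level per length of the efflux genes in controls, at 15.0 TPM, but its range overlapped that of Abcc5 at 14.8 TPM. It measured 40.4, 38.7 and 35.5 CPM in controls and 44.3, 48.3 and 46.3 CPM in cKO. Every cKO library lay above every control. The rise was small, 0.28 ± 0.07 on the log2 scale (adjusted p 0.0126 by edgeR), and the authors' deposited table from Sleuth gives Abcg2 a q-value of 0.622.

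Abcc5, a cyclic nucleotide exporter, rose from 49.5 ± 0.588 to 63.1 ± 7.85 CPM (SD, n = 3; 0.35 ± 0.08, adjusted p 0.0123 by edgeR). Abcc4, which exports cyclic nucleotides and prostaglandins, measured 8.57, 7.43 and 7.94 CPM in controls and 5.14, 5.31 and 4.61 CPM in cKO. The groups were well apart, and its log2 fold change was -0.67 ± 0.12 (adjusted p 0.00315 by edgeR). Abcc1, the exporter of glutathione conjugates and leukotriene C4, fell from 57.8 ± 3.78 to 42.7 ± 1.91 CPM (-0.44 ± 0.07, adjusted p 0.00115 by edgeR). So Abcc4 and Abcc5, which share cyclic nucleotides as substrates, differed from control in opposite directions by edgeR. In the authors' deposited table from Sleuth the directions were the same, with q-values of 0.0611 for Abcc4 and 0.135 for Abcc5. Abcc3, Abcc6, Abcc10, Abcc12 and Abcg3 were not called, with log2 fold changes from -0.12 to 0.94. Abcc6, needed for the ATP release that prevents ectopic mineralisation, held at most 45 counts in a library.

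Summed over the 13 pumps, the level was 57.6 ± 1.13 TPM in controls and 76.3 ± 3.39 TPM in cKO (SD, n = 3), without TMM scaling. Abcb1b alone went from 1.39 to 11.1 TPM. Genes of xenobiotic sensing and conjugation, a list of both regulators and enzymes, had 4 higher, 6 lower and 7 not called of 17 tested, with a median of 0.08. Ugt1a6a, a glucuronosyltransferase, fell by 2.16 on the log2 scale, the glutathione transferase Gsta4 by 1.79 and Gclc, of glutathione synthesis, by 0.77. Gstp1, the highest of the list per length in controls, had 78.7 ± 21.0 CPM in controls and 92.9 ± 29.9 CPM in cKO and was not called.

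Among 21 genes of lipid export, 14 were tested, 5 were higher, 3 lower and 6 not called, with a median log2 fold change of 0.41. The share called was 57.1%, beside 35.9% of all genes tested, and nothing is read from it. Abca1 and Abca7, close relatives that load phospholipid onto lipid-poor apolipoproteins, differed in opposite directions. Abca1 (ENSMUSG00000015243.4, chr4:53030787-53159895, minus strand), the main cholesterol exporter of most cells, measured 70.6, 65.9 and 74.1 CPM in controls and 107, 122 and 108 CPM in cKO. The lowest cKO library was well above the highest control. It rose to 160.5% of control, from 70.2 ± 4.08 to 113 ± 8.44 CPM (SD, n = 3; log2 fold change 0.68 ± 0.07, adjusted p 0.000117 by edgeR).

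Abca7 (ENSMUSG00000035722.15, chr10:79996494-80015572, plus strand), known in humans as a risk gene for Alzheimer's disease, measured 40.7, 33.7 and 41.0 CPM in controls and 21.0, 16.9 and 16.8 CPM in cKO. Each cKO library held less than each control. It fell from 38.5 ± 4.13 to 18.2 ± 2.41 CPM, 47.4% of control (-1.08 ± 0.12, adjusted p 0.000189 by edgeR). Per length, the ratio of Abca1 to Abca7 was 1.13, 1.28 and 1.18 in controls and 3.32, 4.72 and 4.20 in cKO. Near parity in controls, the pair stood at 4.08 ± 0.707 in cKO, against 1.19 ± 0.0742 (SD, n = 3).

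Abca2 and Abca5, members of the endosome and lysosome, were lower. Abca2, a lipid carrier of the endolysosome best known in myelinating cells, measured 40.8, 38.3 and 37.7 CPM in controls and 27.5, 25.2 and 24.8 CPM in cKO. Its groups were narrow and far apart (-0.59 ± 0.07, adjusted p 0.000282 by edgeR). Abca5, a lysosomal member whose human loss is linked to excess hair growth, measured 83.4, 56.2 and 57.4 CPM in controls and 39.3, 38.9 and 53.6 CPM in cKO. Control 1 stood above the other two controls and cKO 3 reached close to them. Its log2 fold change was -0.58 ± 0.18 (adjusted p 0.0331 by edgeR). That call was lost without control 1, cKO 1 or cKO 2 (edgeR adjusted p 0.11, 0.107 and 0.103, and -0.35 without control 1), with upper-quartile scaling (0.0666), with DESeq2 (0.0844) and in the authors' deposited DESeq2 table (0.0856).

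Abca5 closes a run of 5 A-class genes on 405.5 kb of chromosome 11, all on the minus strand, in the order Abca8b, Abca8a, Abca9, Abca6, Abca5 (chr11:109932190-110337716). The first 3 were higher in the cKO, Abca6 was not called and Abca5 was lower. Abca9, the lipid export gene with the highest level per length in controls and one with little known function, measured 102, 116 and 132 CPM in controls and 182, 157 and 146 CPM in cKO. The lowest cKO library was above the highest control (0.47 ± 0.11, adjusted p 0.00887 by edgeR). Abca8b, in mouse linked to cholesterol efflux, measured 13.1, 12.9 and 18.6 CPM in controls and 25.7, 21.6 and 22.5 CPM in cKO. The groups did not overlap, with control 3 nearest to the cKO (0.65 ± 0.15, adjusted p 0.0102 by edgeR).

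Abca8a rose from 42.4 ± 5.63 to 56.1 ± 9.18 CPM (SD, n = 3; 0.41 ± 0.13, adjusted p 0.0412 by edgeR). Its call was lost without control 2, control 3, cKO 1 or cKO 3 (edgeR adjusted p 0.115, 0.0725, 0.0567 and 0.123, and a log2 fold change of 0.27 without cKO 3) and with a sex term (0.0849). Abca6 had a log2 fold change of 0.41 ± 0.22 (adjusted p 0.191 by edgeR). Abca8a and Abca8b share few exact stretches: 1.89% of the 50-base stretches of Abca8a occur in Abca8b, and none of those of Abca9 occur in Abca8a. Abca8b overlaps the antisense gene Gm11697. These 3 higher genes differed by 0.41 to 0.65, and the median of the 10 dermal fibroblast markers was 0.47. Whether they are read in the dermis was not tested.

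Abcg5, which pairs with Abcg8 to pump plant sterols and cholesterol out of liver and gut cells, was close to the limit of detection. It held 16, 0 and 3 counts in controls and 60, 45 and 38 in cKO, or 0.361, 0 and 0.0854 CPM against 1.28, 0.761 and 0.811 CPM. Every cKO library was above every control, from 0.149 ± 0.188 to 0.950 ± 0.286 CPM (SD, n = 3). The log2 fold change was 2.73 ± 0.90 (adjusted p 0.0445 by edgeR), and 4.80 without control 1. Its call was lost without control 3, cKO 1, cKO 2 or cKO 3 (edgeR adjusted p 0.129, 0.13, 0.0831 and 0.0901), with a sex term (0.059) and with no filter on low counts (0.0561). Its partner Abcg8, which overlaps it on the opposite strand, held 0 counts in 5 libraries and 3 in cKO 1.

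Sterol exporters without a call were Abcg1, which loads cholesterol onto lipoproteins, at 9.50 ± 1.13 and 11.1 ± 0.580 CPM (SD, n = 3), and the neural Abcg4 (0.41 ± 0.22). The lung surfactant carrier Abca3 (0.06) and the photoreceptor gene Abca4 (0.37) were not called either. The summed level of the lipid exporters was 175.6 ± 8.03 TPM in controls and 216.6 ± 8.45 TPM in cKO (SD, n = 3), without TMM scaling. Within it, Abca9 went from 46.4 to 69.5 TPM and Abca1 from 21.7 to 37.6 TPM, while Abca2, Abca5 and Abca7 went down. Of 15 genes of sterol sensing and lipid acceptors, 5 were higher, 3 lower and 7 not called (median 0.04). Apoe, an acceptor of exported cholesterol, rose from 111 ± 20.8 to 168 ± 9.31 CPM (0.60 ± 0.12, adjusted p 0.00496 by edgeR). Nr1h3, the sterol receptor LXR alpha that switches on Abca1 and Abcg5, went from 1.79 ± 0.0249 to 3.60 ± 1.29 CPM (1.01 ± 0.28, adjusted p 0.0235 by edgeR). That call was lost without control 1, control 2, control 3, cKO 2 or cKO 3 (edgeR adjusted p 0.0614 to 0.0849) and with a sex term (0.0727). Its partner Rxra fell from 319.5 ± 16.0 to 164 ± 1.80 CPM (-0.96 ± 0.05, adjusted p 3.47e-06 by edgeR). The other LXR gene, Nr1h2, measured 40.3 ± 3.61 and 39.6 ± 2.55 CPM and was not called (-0.02 ± 0.08, adjusted p 0.858 by edgeR). Macrophages, a cell type known for Abca1 and Abcg1, had 6 of 10 markers higher at a median of 0.37, with no marker at 0. Among the 6, Cx3cr1 and Tyrobp lost their calls without control 1, control 2, cKO 1 or cKO 3. Their edgeR adjusted p was then 0.0677 to 0.127 for Cx3cr1 and 0.0589 to 0.0872 for Tyrobp. Cx3cr1 also lost its call with a sex term (0.0521 by edgeR). The part of macrophages in the Abca1 difference was not tested.

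**Figure D3:**
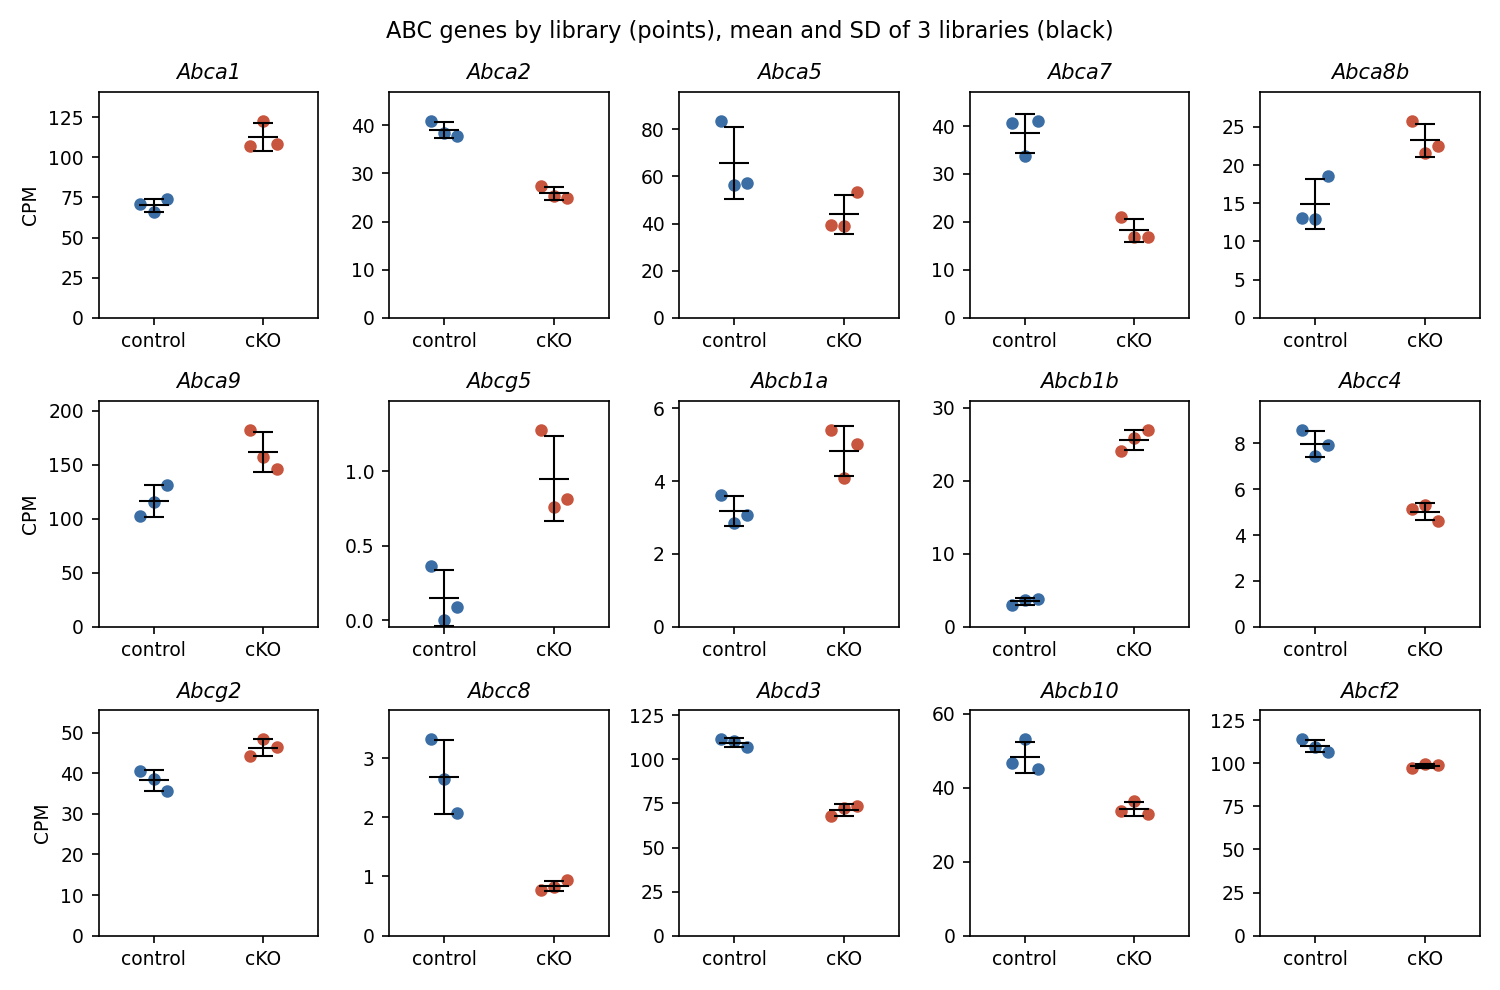
Level in CPM of 15 ABC genes, 1 point per library, with the mean and SD of 3 libraries in black and an axis of its own for each gene. Most were chosen because they were called with groups that did not overlap, and the rest as highest per length in their role group. The lack of overlap in the panels largely follows from that choice. Abcb1b and Abcc8 stand widest apart for their size, while Abcf2 and Abcg2 differ little.

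Abcc8 encodes the sulfonylurea receptor SUR1, which carries nothing and instead gates the ATP-sensitive potassium channel. It measured 3.31, 2.64 and 2.08 CPM in controls and 0.768, 0.828 and 0.939 CPM in cKO. All cKO libraries were below all controls and close to each other. The mean fell from 2.68 ± 0.619 to 0.845 ± 0.0866 CPM (SD, n = 3), 31.5% of control, with a log2 fold change of -1.66 ± 0.24 (adjusted p 0.00102 by edgeR). In the authors' deposited DESeq2 table the value is -1.65. The authors' deposited Sleuth table gives -0.379 on the natural log scale, which is -0.55 as log2, with a q-value of 0.391, so the 2 deposited tables differ for Abcc8. The antisense gene Gm45486 overlaps Abcc8. The pore subunit Kcnj11, which assembles with SUR1, rose from 2.91 ± 0.699 to 5.93 ± 0.548 CPM (1.03 ± 0.20, adjusted p 0.0043 by edgeR), opposite to Abcc8, and Kcnj8, the other pore subunit and also a pericyte marker, was higher by 0.43 on the log2 scale. Ezr and Slc9a3r1, scaffold genes for apical ABCC proteins, fell by 0.73 and 0.51. Of the 6 partner genes 5 were tested, with 2 higher and 2 lower.

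D-class genes differed in direction. Abcd3, an abundant peroxisomal membrane transporter, which imports branched-chain acyl groups and bile acid precursors, measured 111, 110.4 and 107 CPM in controls and 67.7, 72.5 and 73.8 CPM in cKO. Both groups were tight and well apart. It fell to 65.1% of control (log2 fold change -0.62 ± 0.05, adjusted p 3.38e-05 by edgeR). Abcd2, an importer of very long chain fatty acids, had 5.63 ± 1.22 and 5.84 ± 1.09 CPM and was not called. Abcd4, which releases cobalamin from lysosomes, rose from 12.2 ± 0.905 to 17.3 ± 0.854 CPM (0.50 ± 0.09, adjusted p 0.00334 by edgeR).

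Of 22 genes for peroxisome assembly and beta-oxidation, 1 was higher, 9 lower and 12 not called, with a median log2 fold change of -0.20. Scp2, the sterol carrier and thiolase of peroxisomes, fell from 116 ± 0.844 to 71.9 ± 8.25 CPM (-0.69 ± 0.08). The import receptor Pex7 fell by 0.82 and the membrane assembly factor Pex16 by 0.72. Cat, the peroxisomal catalase, was the 1 that rose, by 0.33.

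Among carriers of mitochondria and lysosomes, Abcb10 was lower, and Abcb6, Abcb8 and Abcb9 were not called. Abcb10, an inner-membrane carrier needed for haem synthesis in red cell precursors, measured 46.6, 53.1 and 45.2 CPM in controls and 33.6, 36.3 and 32.9 CPM in cKO. The groups were clearly apart (-0.50 ± 0.08, adjusted p 0.00138 by edgeR). It overlaps Galnt2l and Gm45890 on the other strand.

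Abcb6, a porphyrin carrier, measured 20.0, 24.1 and 12.8 CPM in cKO around controls of 14.2, 16.0 and 15.6 CPM. With cKO 3 left out it was called higher (0.53, edgeR adjusted p 0.0113), against 0.31 ± 0.20 with all libraries. Of 21 genes of mitochondrial iron-sulfur clusters and haem, 1 was higher, 6 lower and 14 not called (median -0.07). The mitochondrial iron importer Slc25a37 fell from 83.1 ± 9.0 to 29.5 ± 4.68 CPM (-1.49 ± 0.12), Alad of haem synthesis by 0.77 and the glycine carrier Slc25a38 by 0.54. Of 9 erythroid markers tested, 0 were called by edgeR (2 at an unadjusted p under 0.05), 0 by limma-voom and 1 by DESeq2, with a median log2 fold change of 0.52. Without cKO 1, edgeR called Hbb-bs (0.70, adjusted p 0.0451). Their sum was 4246 to 6778 CPM in controls and 5705 to 10973 CPM in cKO. The part of red cells in the Abcb10 difference was not tested.

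The ribosome-associated members were abundant and differed little, with log2 fold changes from -0.29 to -0.04. Abcf2, the highest of the family per length in both groups, measured 114, 109.7 and 107 CPM in controls and 97.1, 99.4 and 98.9 CPM in cKO. Its groups were apart by a small margin (-0.16 ± 0.04, adjusted p 0.0234 by edgeR), and the call was lost without each of control 1, control 2, cKO 1, cKO 2 and cKO 3 (edgeR adjusted p 0.058 to 0.128), with upper-quartile scaling (0.345), with no filter (0.0557) and with DESeq2 (0.0609). Abcf1, a partner of initiation factor eIF2, went from 137 ± 5.34 to 119 ± 6.41 CPM (-0.21 ± 0.06, adjusted p 0.0204 by edgeR). Its call was lost without control 1, control 2, cKO 1 or cKO 3 (edgeR adjusted p 0.1, 0.0575, 0.0552 and 0.0698) and with upper-quartile scaling (0.156). Abcf3 went from 55.7 ± 3.15 to 45.6 ± 2.25 CPM (-0.29 ± 0.06, adjusted p 0.00815 by edgeR), and under upper-quartile scaling its adjusted p was 0.0545. All 3 F-class members were thus lower with TMM scaling and lost that call with upper-quartile scaling, which raised the median log2 fold change of all genes by 0.10.

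Abce1, which splits ribosomes after termination, had 196 ± 15.4 and 190.0 ± 6.24 CPM (SD, n = 3) and was not called (-0.04 ± 0.06). Of 15 tested genes of ribosome recycling and initiation, 1 was higher, 3 lower and 11 not called (median -0.08). Mcts1, a recycling and reinitiation factor, fell by 0.39, and Eif5 by 0.23, a call lost with upper-quartile scaling (adjusted p 0.0884 by edgeR). Gcn1, the ribosome-bound activator of the stress kinase Gcn2, rose by 0.31, a call lost without control 2, control 3 or cKO 2 (edgeR adjusted p 0.0563 to 0.0604) and with the replicate block (0.0543). Eif3a, the highest of the list per length in controls, had a log2 fold change of -0.11 ± 0.05 and was not called.

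Ordered by level per length in controls, the family ran from Abcf2 at 137 TPM through Abce1 (105), Abcf1 (99.8), Abcd3 (53.3), Abcf3 (50.2), Abca9 (46.4) and Abcb10 (36.0). Abce1 overlapped Abcf1 in control range, Abcd3 overlapped Abcf3, Abcf3 overlapped Abca9 and Abca9 overlapped Abcb10, while Abcf2 stood apart from Abce1, Abcf1 from Abcd3 and Abcb10 from Abcb8. From Abca1 at 21.7 TPM down to Abcc5 at 14.8 TPM, neighbours in the order overlapped in control range. By merged exon length, Abcb1b was at position 32 of 48 in controls, at 1.39 TPM, overlapping Abcc3 and Abcg3. Abca9 reached 69.5 TPM in the cKO, above Abcd3 at 37.4 TPM and Abcf3 at 44.3 TPM. Over the whole family the summed level was 797.5 ± 20.0 TPM in controls and 832.2 ± 9.73 TPM in cKO (SD, n = 3), a ratio of 1.04. TPM does not use the TMM factors behind the CPM values and fold changes, so the scales can differ between groups. Abce1, for example, went from 105 to 109 TPM but from 196 to 190 CPM. No rise or fall of the family is therefore read from its summed TPM. The groups barely separated, with the lowest cKO sum at 820.96 TPM (cKO 3) and the highest control sum at 820.55 TPM (control 2). The 4 ribosome-associated genes made up 392.1 ± 19.7 TPM of the family sum in controls and 379.4 ± 3.26 TPM in cKO.

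**Figure D4:**
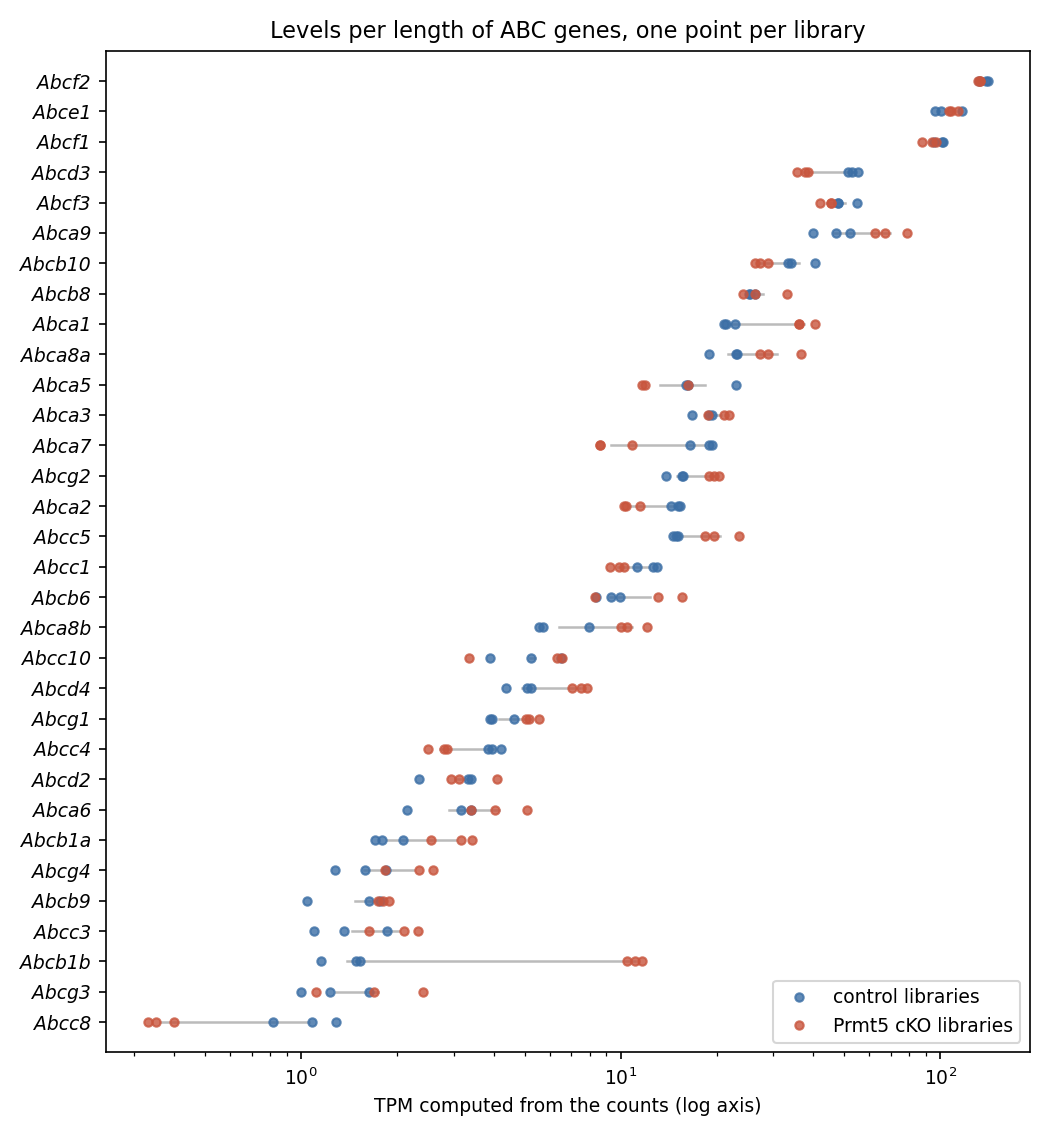
TPM, computed from the counts, of 32 ABC genes with at least 1 TPM in controls, on a log axis, with 1 point per library and a grey line between the group means, ordered by control level. Abcf2, Abce1 and Abcf1 lead at 99.8 to 137 TPM in controls, and Abcb1b moves farthest, from 1.39 to 11.1 TPM.

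The 9 members that were not tested were at or near 0. Abca14, Abca15, Abca16, Abca17 and Abcb5 had 0 counts in all 6 libraries, against a limit of 3 counts, which is 0.0453 to 0.0854 CPM depending on the library. The first 4 are rodent genes known from testis, and Abcb5 is a P-glycoprotein relative. Abca13 held 5, 9 and 0 counts in controls and 0, 0 and 3 in cKO. The bile salt pump Abcb11 held 26 counts in control 2 and 16 in cKO 1 and 0 elsewhere. Abcc2, the apical conjugate exporter of liver, held 3 counts in each of cKO 2 and cKO 3 only, and Abcg8 3 counts in cKO 1 only. A difference in these genes was not detectable at this depth.

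Family members with other symbols were read beside these. The peptide carriers Tap1 and Tap2, which feed MHC class I in the endoplasmic reticulum, rose from 17.4 ± 1.90 to 32.4 ± 1.46 CPM (0.89 ± 0.09, adjusted p 0.000146 by edgeR) and from 5.53 ± 0.614 to 9.02 ± 0.545 CPM (0.71 ± 0.13, adjusted p 0.00275 by edgeR). Cftr, the chloride channel, measured 1.67, 5.01 and 0.939 CPM in controls and 5.20, 3.57 and 5.20 CPM in cKO and was not called, with overlapping groups.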

How the data were processed

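The authors deposited whole-number counts per gene for 6 back skin libraries, beside a DESeq2 table (log2 fold changes with raw and adjusted p-values) and a Sleuth table (natural log coefficients and q-values), per the file headers. STAR, StringTie, DESeq2 and mm10 are named in the submitters' processing notes. The step that made the counts, its use of strand and the annotation release were not given in the sources used here. More genes held a count of 3 than of 2 in every library (994 against 808 in control 1), so a count may stand for less than 1 read, and floors cover counting error only.

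The counts were tested with edgeR 4.0.16 in R 4.3.3 (filterByExpr, TMM scaling, quasi-likelihood test, Benjamini-Hochberg over 19227 genes, threshold 0.05). The biological coefficient of variation was 15.5%. A standard error is the log2 fold change divided by the square root of F. TPM was computed from the counts with merged exon lengths of GENCODE M21, found for 98.1% of identifiers. It did not use the TMM factors, so differences between groups in TPM and in CPM are not on the same scale. Promoters are from RefSeq on GRCm38.p6. Values are given library by library for called members whose groups did not overlap and whose log2 fold change was at least 0.5 in size, for the member highest per length in each role group, and for others where a result turns on them. Up to 3 called genes and the gene highest per length in controls are named per pathway list, and others where a count is small or a reading turns on them. Members and lists were chosen with earlier results of these data known. The values of 2 members are not reported here, though counts and sums over the family hold them. Znf598 and Ahsp matched no identifier. The labels give 1 embryo per library. The edgeR step was tested on simulated counts. The alternatives tried were scaling by RLE or by the upper quartile, testing without a filter, a CPM filter (at least 1 CPM in 3 libraries), a replicate block, a sex term, limma-voom (limma 3.58.1), DESeq2 1.42.0, leaving out each library and, added after the data were seen, the authors' adjusted p.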

Additional observations from a re-analysis of the deposited data

How the results depend on the processing

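Of the 23 called members, 15 kept their call under all 15 alternatives run, and 15 of the 16 others stayed without one, the exception being Abcb6 without cKO 3. No member changed direction with a call. The authors' deposited Sleuth table was not among the alternatives. Its q-values were above 0.05 for the called members Abcb1a (0.219), Abcc4 (0.0611), Abcc5 (0.135) and Abcc8 (0.391). The same held for Abcg2 (0.622), Abca8a (0.319) and Abcf3 (0.341). The other called members were below 0.05 there, Abca5 (0.0187) and Abcf2 (0.00649) among them. Under upper-quartile scaling 7 members were lower in place of 12, the median over members was 0.3262, and 4514 genes of the whole table were higher and 2719 lower, against 3139 and 3767. Leaving out 1 library at a time gave 8 to 11 members higher, 9 to 12 lower, 3 to 4 at 2-fold or more, a median of 0.1501 to 0.2832 and 5705 to 5897 genes called. With the sex term 8 members were higher and 12 lower. Same-numbered libraries did not deviate together (correlations -0.079, -0.043 and -0.062). This cannot exclude a pairing, since each group has 3 libraries and every same-numbered pair differs in sex pattern. With the replicate block 11 members were higher and 10 lower, 4 were at 2-fold or more, the median was 0.2284 and 6098 genes were called. Abca5 (adjusted p 0.0529) and Abcf2 (0.0542) lost their calls in edgeR with that block. The CPM filter removed Abcb4, Abcc6, Abcc12 and Abcg5 and gave them no value. The cause of these shifts was not tested. Genes below about 1 CPM, Abcg5 among them, rest on few counts. The protein sequences named in the design were not analysed here.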
